A study of Caenorhabditis elegans with 10 samples.

Results

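Neuropeptides are made as long precursors, trimmed and modified inside dense core vesicles, and released when those vesicles fuse with the plasma membrane. The genes described here serve that route in Caenorhabditis elegans and were chosen by name, 7 in number out of the 46272 genes of the table: egl-3, egl-21 and sbt-1 for peptide processing, ida-1 and hid-1 for the vesicle itself, and unc-31 and pkc-1 for its release. Within the vesicle, a proprotein convertase cuts the precursor after pairs of basic residues, a carboxypeptidase removes those residues, and many peptides are then amidated. Most worm neurons release peptides in addition to a small-molecule transmitter, and in ASH, a glutamatergic pair of head neurons that senses noxious stimuli, peptides act beside glutamate.

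RNA came from wild-type, untreated worms grown on standard plates, and cells were sorted by fluorescence. The ASH group has 5 libraries of YFP-labelled neurons, and the non-ASH group has 5 libraries of cells without YFP. The sources used here give neither the promoter behind the YFP label nor the worms' stage, and they do not say whether the libraries came from separate sorts, so the adjusted p-values may measure a technical spread only. The authors' deposited table holds 1 FPKM value (fragments scaled to transcript length and to library size) for each group and no value for single libraries, so the levels below carry no SD, and the depth behind them is unknown. Fold changes are log2 of ASH over non-ASH, and the word called marks an adjusted p under 0.05 from DESeq2, the authors' count-based test, among 16802 genes with such a value. In mixtures of cells, fewer cells of a type and less RNA per cell cannot be told apart.

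The labels were checked against marker genes. Of 7 ASH genes, 6 were called higher in ASH and 0 lower in the authors' deposited table, with a summed level of 204 FPKM in ASH and 7.85 in non-ASH. Of that sum, osm-10 alone made up 142 and 1.12 FPKM. Cuffdiff, the authors' other tool, called 4 of the 7 higher and 0 lower. Of 9 genes used by all neurons, DESeq2 and Cuffdiff each called 0 in either direction, and 1 had an unadjusted DESeq2 p under 0.05. None of these 9 was listed as exactly 0, but unc-10 came close in the ASH group, with 0.00657 FPKM against 0.730. Their sum was 484 FPKM for the ASH group against 363, and snb-1 alone gave 337 and 235 of it. The DESeq2 fold changes were positive for 5 of these genes and negative for 4 (median 0.12). Intestine markers were also present in the ASH group, with a sum of 3862 FPKM over 9 genes against 848 in non-ASH. Of that sum, asp-1 alone made up 3660 and 692 FPKM, and the other 8 genes summed to 202 against 156. DESeq2 called 3 of the 9 higher, asp-1, elt-2 and vha-6, and 0 lower. Cuffdiff called 3 higher, elt-7, elt-2 and vha-6. It called 1, act-5, lower (27.6 FPKM against 66.6), and none of the 9 was at 0 in either group. By sign, 8 of the 9 had a positive DESeq2 fold change and 1 a negative one, with a median of 0.85. DESeq2 also called 1 of 4 body wall muscle genes higher, 2 of 4 pharyngeal muscle genes lower and 3 of 3 coelomocyte genes lower.

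One of the 7 genes, unc-31, was called higher in ASH, and the other 6 were not called in either direction. The count of 1 stands beside a background of 5.32% of all tested genes called higher in ASH. DESeq2 called 0 of the 7 lower, where 4.44% of tested genes were called lower. At an unadjusted DESeq2 p under 0.05, 2 of the 7 were higher and 0 lower, beside 11.4% and 12.3% of all tested genes. The 3 processing genes and ida-1 had FPKM ratios of ASH to non-ASH between 1.79 and 2.91. The ratio was 0.764 for hid-1 and 0.762 for pkc-1. The median fold change of the 7 was 0.83 on the log2 scale, against -0.09 over all tested genes, and 5 of the 7 were positive, against 45.7% of all tested genes.

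**Figure D1:**
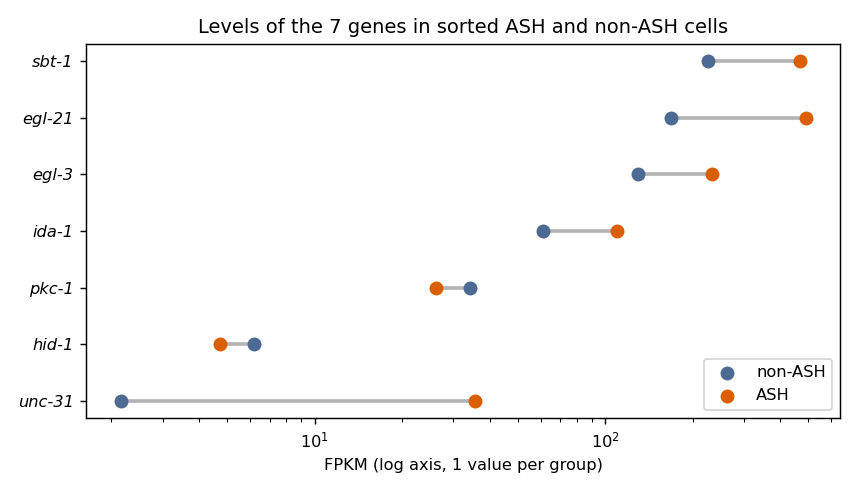
FPKM of the 7 genes in non-ASH (blue) and ASH (orange) on a log axis, with 1 value per group from the authors' table and no error. The gap for unc-31, from 2.15 to 35.6 FPKM, is the widest, and the points of hid-1 and pkc-1 lie in the opposite order.

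The gene unc-31 encodes the worm homologue of CAPS, the calcium-dependent secretion activator that readies dense core vesicles for fusion. It is on chromosome IV (WBGene00006767), and the authors' table lists 19 transcripts for it. The ASH group stood at 35.6 FPKM and the non-ASH group at 2.15, a ratio of 16.6. DESeq2 in the authors' deposited table gave a log2 fold change of 3.82 with an adjusted p of 1.2e-06. Cuffdiff gave 3.54 (q = 0.00101) in the authors' deposited table, a value that includes the 1 FPKM which the authors added to both groups. Of the 16802 tested genes, 132 (0.786%) had a larger DESeq2 fold change. The gene ranked 7 of 7 by FPKM in non-ASH and 5 of 7 in ASH, above pkc-1 and hid-1. Its level was 0.0628 times that of pkc-1 in non-ASH and 1.36 times in ASH. No standard error accompanies these ratios, so whether neighbours in the order differ beyond their spread was not tested.

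**Figure D2:**
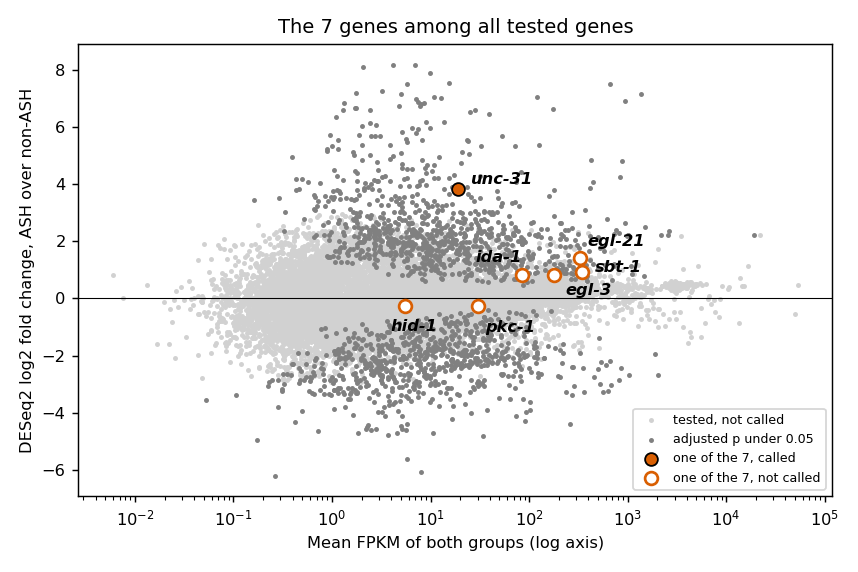
DESeq2 log2 fold change of ASH over non-ASH against the mean FPKM of both groups (log axis) for all tested genes, with the 7 genes in orange (filled where called). Of the 7, only unc-31, at 3.82, lies among the called genes marked in dark grey, and egl-3, egl-21, sbt-1 and ida-1 lie between 0.82 and 1.41.

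The processing genes were abundant in both groups. The gene egl-21 encodes the carboxypeptidase E homologue that trims the basic residues left by the convertase. It is on chromosome IV, and its 491 FPKM in ASH and 169 in non-ASH lay above 98.0% and 95.2% of the tested genes. Its log2 fold change in the authors' deposited table was 1.41, with a DESeq2 p of 0.0136 before adjustment and 0.0958 after, so it was not called. Cuffdiff in the authors' deposited table gave 1.53 and did call it (q = 0.00762). With Cuffdiff's q, 2 of the 7 genes, unc-31 and egl-21, were thus higher, beside 3.58% of all tested genes, and 0 were lower, beside 3.53%.

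The gene egl-3, on chromosome V, encodes the proprotein convertase that makes most of the cuts in neuropeptide precursors, and sbt-1, also on chromosome V, encodes its chaperone. The level of egl-3 was 232 FPKM in ASH and 130 in non-ASH, and that of sbt-1 was 467 and 226. Neither was called in the authors' deposited table, where egl-3 had a DESeq2 log2 fold change of 0.82 (adjusted p = 0.388) and sbt-1 one of 0.93 (adjusted p = 0.307). The chaperone stood at 2.01 times the FPKM of its enzyme in ASH and 1.74 times in non-ASH. The carboxypeptidase gene stood at 2.12 times the FPKM of egl-3 in ASH and 1.30 times in non-ASH. In both groups the upper 3 places among the 7 genes went to egl-21, sbt-1 and egl-3, with egl-21 in place 1 in ASH and sbt-1 in place 1 in non-ASH.

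Of the vesicle genes, ida-1 stood at 23.2 times the FPKM of hid-1 in ASH and 9.87 times in non-ASH. The gene ida-1, on chromosome III, encodes a tyrosine-phosphatase-like protein of the dense core vesicle membrane and was listed at 110 FPKM in the ASH libraries against 61.0. Its log2 fold change was 0.83 (DESeq2 adjusted p = 0.374) in the authors' deposited table, close to that of egl-3. The 5 marker genes of uterine uv1 cells and of other cells known for ida-1 summed to 86.6 FPKM in ASH and 79.2 in non-ASH, of which tdc-1 made up 79.4 and 71.0, and the other 4 summed to 7.25 and 8.21. DESeq2 tested 4 of them and called 0, with 0 by Cuffdiff and 0 at an unadjusted p under 0.05. The gene hid-1, on chromosome X, acts in the sorting of cargo into dense core vesicles and is used in neurons and gut. It was the least abundant of the 7 in ASH, at 4.72 FPKM, and had 6.18 in non-ASH. The authors' deposited table gave it a log2 fold change of -0.27 (DESeq2 adjusted p = 0.715). The intestine markers above other than asp-1 summed to 1.30 times as much in ASH as in non-ASH. Among them elt-7 stood at 12.8 FPKM against 1.56, elt-2 at 8.10 against 1.88 and vha-6 at 37.0 against 12.4. The only 1 with a negative fold change, act-5, stood at 27.6 FPKM against 66.6. Of all 9 markers, 8 had a positive DESeq2 fold change, with a median of 0.85 over the 9. The part of these markers in the hid-1 value was not tested.

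The gene pkc-1, on chromosome V, encodes a protein kinase C of the diacylglycerol-regulated, calcium-independent type that promotes release of peptides. Its level was 26.1 FPKM in ASH against 34.2, and DESeq2 in the authors' deposited table gave a fold change of -0.28 (adjusted p = 0.688) on the log2 scale. The 2 genes for release therefore had different values in the same libraries, 3.82 for unc-31 and -0.28 for pkc-1, and the difference between them was not tested. In the reference annotation F10C2.3, a protein-coding gene on the opposite strand, shares 207 exon bases with pkc-1, where ASH stood at 2.45 FPKM and non-ASH at 0.0162. Likewise grl-14 shares 29 exon bases with sbt-1 on the opposite strand and was listed at 0.306 and 0.483 FPKM. The libraries keep strand, per the labels, but the sources used here do not say whether the counting used it, so reads of these pairs may be mixed. The other 5 genes share 0 exon bases with any gene annotated there. The span of unc-31 is overlapped by 5 noncoding RNA genes. Of these, ZK897.3, on the same strand, was listed at 39.5 FPKM in ASH against 0, without an adjusted p. ZK897.9 had 4.98 against 0 and ZK897.4 1.48 against 0, and F07C6.5 and ZK897.8 were at 0 in both groups. Their part in the unc-31 value was not tested.

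**Figure D3:**
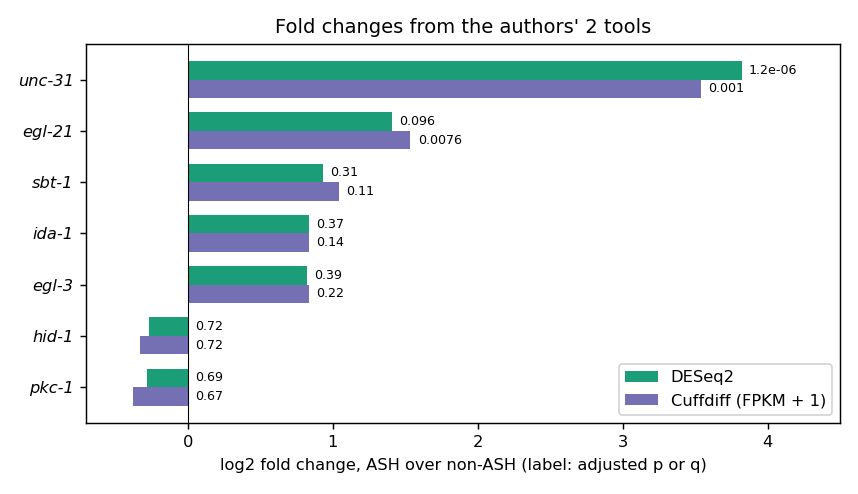
Log2 fold changes of the 7 genes from DESeq2 (green) and Cuffdiff (purple, on FPKM + 1), each bar labelled with its adjusted p or q. The tools give the same sign for all 7, and the call differs for egl-21, at 0.096 against 0.0076.

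Beyond these 7, other genes of the peptide route were read from 7 lists that held 47 genes, of which 46 were tested. Of the 46, 2 were higher and 2 lower in ASH by DESeq2 in the authors' deposited table, beside 5.32% and 4.44% of all tested genes, and the median fold change was -0.10. The calls fell on enzymes that cut or break down peptides. None was among the listed genes of vesicle sorting, release or kinase signalling. Of the synaptotagmin (snt) genes the release list held only snt-1 and snt-3. Outside the lists, snt-6 was called higher in ASH (DESeq2 adjusted p = 0.0423).

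The 2 genes called higher are proprotein convertases. The gene aex-5, needed for the defecation motor programme, had 337 FPKM in the ASH group and 74.0 in the other, above egl-3 in ASH and below it in non-ASH. Its log2 fold change was 2.08 (DESeq2 adjusted p = 0.00822) per the authors' deposited table. The furin gene kpc-1 had 19.2 and 8.24 FPKM and a log2 fold change of 1.11 (DESeq2 adjusted p = 0.0153) per the authors' deposited table, and Cuffdiff did not call it (q = 0.134). The third other convertase, bli-4, which processes cuticle proteins, was listed at 51.5 and 68.7 FPKM with -0.32 (DESeq2 adjusted p = 0.392) in the authors' deposited table. Of the 4 convertase genes, 2 were thus called and 2, egl-3 among them, were not. Of the 9 intestine markers above, DESeq2 called 3 higher and 0 lower, and Cuffdiff called 3 higher and 1, act-5, lower. Their part in the aex-5 value was not tested.

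Carboxypeptidase and peptidase genes gave the 2 calls in the other direction. The carboxypeptidase gene cpd-2 had 5.24 FPKM in ASH and 20.9 in non-ASH and a log2 fold change of -1.80 (DESeq2 adjusted p = 0.0362) in the authors' deposited table. Its relative cpd-1 stood at -1.17 (DESeq2 adjusted p = 0.0645) there, so that both had a sign opposite to that of egl-21. The neprilysin-like peptidase gene nep-21 had 2.25 FPKM in ASH and 9.58 in non-ASH and a log2 fold change of -1.60 (DESeq2 adjusted p = 0.0205) in the authors' deposited table. Of the other 4 peptide breakdown genes none was called by DESeq2 or Cuffdiff, and the most abundant, nep-2 and nep-17, had -0.63 and 0.98 in the authors' deposited table.

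Of the 3 genes for amidation enzymes, which act after egl-21, pghm-1 and pgal-1 had levels near those of the processing genes. The hydroxylating enzyme gene pghm-1 had 354 FPKM in ASH and 107.7 in non-ASH. It missed the DESeq2 threshold (log2 fold change 1.63, adjusted p = 0.0542) and was called by Cuffdiff (q = 0.00101) in the authors' deposited table. The lyase gene pgal-1 had 389 and 170 FPKM with 1.03 (DESeq2 adjusted p = 0.297) per the authors' deposited table. The bifunctional gene pamn-1 was low, at 4.38 and 7.55 FPKM. DESeq2 called 0 of these 3, Cuffdiff 1, and 1 had an unadjusted p under 0.05.

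The listed genes for vesicle sorting and fusion had fold changes in both directions, and none of them was called. Of 11 tested genes for biogenesis and sorting, DESeq2 and Cuffdiff each called 0, 2 had an unadjusted p under 0.05 with a negative fold change, and the median log2 fold change was 0.03. The most abundant were the Rab GTPase genes unc-108, with 282 FPKM in ASH against 227, and rab-10, at 139 and 133. Of 15 tested genes for release and transport, both tools called 0, 1 had an unadjusted p under 0.05, and the median was -0.16. The synaptobrevin gene snb-1 had 337 and 235.2 FPKM with a log2 fold change of 0.52 (DESeq2 adjusted p = 0.174) per the authors' deposited table, and cab-1, whose product binds the vesicle regulator AEX-3, had 202 and 118 FPKM. Another gene, nsf-1, had no adjusted p. The DESeq2 fold changes of these 15 lay between -0.88 and 0.78, and that of unc-31 was 3.82. For the snt genes that the list left out, they ran from -0.57 for snt-7 to 1.80 for snt-6.

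Among 7 genes of the protein kinase C family and its upstream signalling, DESeq2 called 0, Cuffdiff 0, and 0 had an unadjusted p under 0.05. The median was -0.09, and the most abundant were the G protein genes goa-1, with 105 FPKM in ASH against 113, and egl-30, at 66.8 and 87.4. The other kinase C genes, named here after their values were seen, had DESeq2 log2 fold changes of 0.15 for pkc-3, -0.52 for tpa-1 and -0.98 for pkc-2 in the authors' deposited table.

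**Figure D4:**
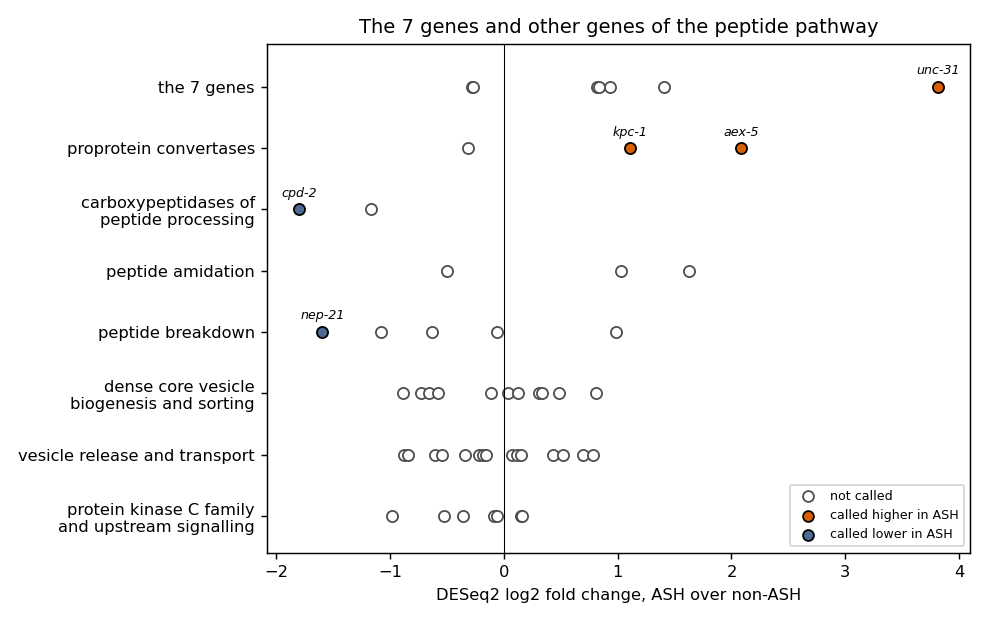
DESeq2 log2 fold changes (horizontal axis) of the 7 genes and of the 46 other tested genes of the pathway, 1 point per gene and 1 line per list, filled where called. Apart from unc-31, the called genes are aex-5 and kpc-1 on the higher side and cpd-2 and nep-21 on the lower side.

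For the cargo of the route, 150 genes were taken by name as neuropeptide precursors. The list includes the insulin-like ins genes, daf-28 and nlp-27 to nlp-34. Whether the product of each passes through this route was not tested. Together the 150 summed to 12265 FPKM in ASH and 8598 in non-ASH, a ratio of 1.43. The sum of egl-3, egl-21 and sbt-1 was 1191 FPKM in ASH and 525 in non-ASH, a ratio of 2.27. Precursors thus stood at 10.3 times the sum of these 3 genes in ASH and at 16.4 times in non-ASH. Much of the precursor sum in ASH came from few genes: nlp-59 (1707 FPKM) and nlp-76 (1311 FPKM) made up 24.6% of it, followed by nlp-55 (675 FPKM). Without nlp-59 and nlp-76 the ratio of the sums was 1.08, and without the 4 highest in ASH it was 0.966. In non-ASH the leading precursors were nlp-49, at 1020 FPKM against 187 in ASH, and flp-1, at 604 against 99.8. Levels of at least 100 FPKM were listed for 34 precursor genes in ASH and 25 in non-ASH. DESeq2 tested 140 precursors and called 12 (8.57%) higher and 8 (5.71%) lower, beside 5.32% and 4.44% of all tested genes, with a median of -0.13. Cuffdiff called 14 of these 140 higher and 9 lower, beside 3.58% and 3.53% of all tested genes.

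**Figure D5:**
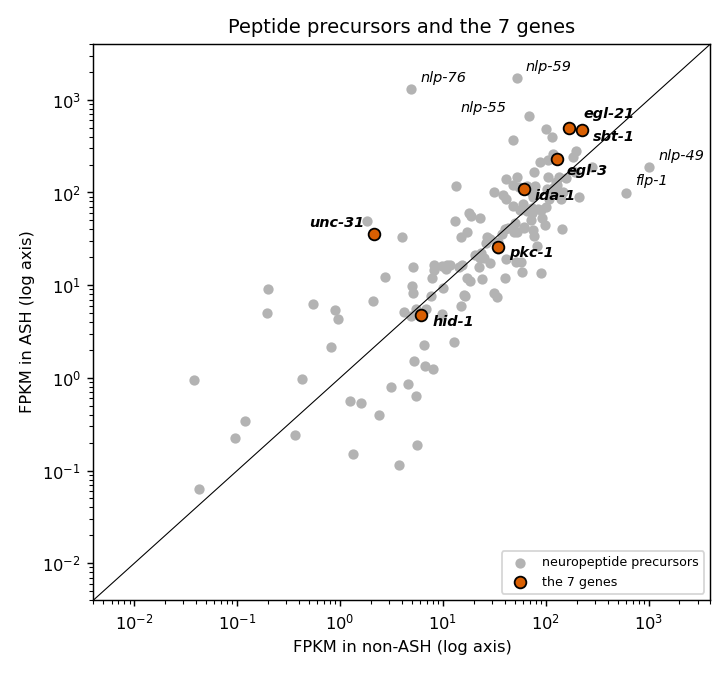
FPKM in ASH against FPKM in non-ASH (log axes, 1 value per group) for 148 precursor genes in grey and the 7 genes in orange, with a line of equal level. The 2 precursors listed at 0 in non-ASH are not drawn. Far above the line lie nlp-59, nlp-76 and unc-31, and also unlabelled precursors such as ins-15 and nlp-63.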

How the data were processed

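Libraries that keep strand were built after poly(A) selection of RNA from the sorted cells, per the labels' protocols, and groups were taken from the sample titles. The submitters' processing notes name HTSeq and DESeq2, Cufflinks and Cuffdiff, and the aligners TopHat2 2.0.13 and Bowtie2 2.2.1. The genome build and annotation are not given in the sources used here. Coordinates are therefore left out. The deposited group values are Cuffdiff FPKM to which the authors added 1, per the file headers and the values, and that 1 was subtracted here. The deposited log2 fold changes and the p-values and q-values are those of the authors' 2 tools. The authors' DESeq2 adjusted p matched a Benjamini-Hochberg adjustment recomputed over its 16802 genes, the tested ones. Whether its fold changes were shrunken was not given. The comparison between groups is the authors' own: without values of single libraries, the tests that the design had foreseen on them could not be run. Of 46273 rows, 1 repeat was dropped.

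The 7 genes were found by their names in the table, the other lists also on current symbols (43253 identifiers matched). The members and lists were chosen with earlier results of these data known. By rule, the text names all 7 genes, of each pathway list the called genes and the 2 most abundant uncalled ones, and the 3 and 2 leading precursors of ASH and non-ASH. Among the genes named outside this rule are pamn-1, nsf-1, the other kinase C genes, ins-15 and nlp-63. So are the snt genes, overlapping and neighbouring genes, and single marker genes. Overlapping genes were read from Ensembl release 115. The alternatives were Cuffdiff's q, an adjusted p under 0.01, a change of at least 2-fold, a floor of 5 FPKM, both tools together, and pseudocounts of 0.1, 5 and 0 FPKM. Counting was tested on simulated data. Python 3.11.15 and pandas 2.3.3 were used.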

Additional observations from a re-analysis of the deposited data

How the results depend on the processing

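The call of unc-31 held under every alternative threshold and under Cuffdiff's q, and the number of the 7 genes called was 2 with Cuffdiff's q, where egl-21 was added, and 1 under the other alternatives. All these calls were higher in ASH. Higher calls made up 3.58% of all tested genes with Cuffdiff's q and 2.67% at an adjusted p under 0.01. With a change of at least 2-fold they made up 4.9%, and by both tools 2.36%. With the floor of 5 FPKM the share was 7.24% of 9921 genes. The other pathway genes called fell from 4 to 1 at a DESeq2 adjusted p under 0.01. That left 1 higher (aex-5) and 0 lower, beside 2.67% and 2.06% of all tested genes. At an unadjusted DESeq2 p under 0.05, 4 were higher and 6 lower, beside 11.4% and 12.3%. Cuffdiff called 2 higher and 2 lower, beside 3.58% and 3.53%. By both tools, 1 was higher and 2 were lower, beside 2.36% and 2.24%. The median log2 fold change of the 7 was 0.84 by Cuffdiff. The median log2 FPKM ratio was 0.84 with a pseudocount of 1 FPKM, 0.85 with 0.1 or none, and 0.82 with 5. The ratio of unc-31, low in non-ASH, ran from 2.50 with 5 FPKM to 4.05 without a pseudocount, and no sign changed for any of the 7. No paired analysis was possible because the table holds no values of single libraries, and for the same reason no library could be left out in turn. Depth is unknown, so the precision of low values such as 2.15 FPKM for unc-31 in non-ASH cannot be given.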

Other observations

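The synaptotagmin family includes calcium sensors of vesicle fusion, and its 7 snt genes were read after their values were seen. DESeq2 in the authors' deposited table called 1 of the 7 higher in ASH, snt-6, and 0 lower, beside 5.32% and 4.44% of all tested genes. Its level was 35.7 FPKM in ASH against 7.44, and its DESeq2 fold change in the authors' deposited table was 1.80 on the log2 scale (adjusted p = 0.0423). The most abundant, snt-4, had 188 FPKM against 66.3. DESeq2 gave it 1.29 (adjusted p = 0.164), and Cuffdiff called it (q = 0.00332) in the authors' deposited table. The synaptic vesicle gene snt-1 had 7.70 against 10.2 FPKM with -0.34 (DESeq2 adjusted p = 0.756) there.

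The protein-coding gene next to unc-31 on one side, F07C6.3, was lower in ASH, at 3.32 FPKM against 23.6, and DESeq2 in the authors' deposited table gave it -2.41 on the log2 scale (adjusted p = 0.00228). On the other side ZK897.10 was listed at 0 in both groups.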
